A study of Mus musculus with 48 samples.

Results

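The flavin-containing monooxygenases Fmo1, Fmo2, Fmo4 and Fmo5 were described in the livers of 48 male mice. The members were chosen by name: every non-control probe that the array's own annotation assigned to 1 of these 4 genes was taken, whatever its signal. This gave 11 probes, of 56605 probes and 37074 gene names on the array. Of the 11, 9 were bright enough to be tested, among 33323 in all. The mice were C57BL/6J and 20 weeks old. They fell into 6 groups of 8, with 1 Agilent one-colour array for each liver. Wild-type (WT) mice, mice without Pparα in hepatocytes (Pparαhep-/-, labelled LKO) and mice without Pparα in any cell (Pparα-/-, labelled KO) were compared. They received either a control diet (CTRL) or a high-fat diet (HFD) with 60% fat, for 12 weeks by the sample labels. The study calls the control diet low in fat in its results and a chow diet in its methods. The methods of the study state a shorter time on the diets. The Pparαhep-/- mice carried a floxed Pparα and a Cre driven by the albumin promoter, so that the deletion was aimed at hepatocytes alone. The WT mice came from a commercial breeder and the mutants from a local facility. Genotype and origin cannot be told apart. All mice were kept at thermoneutrality and killed in the fed state.

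Flavin-containing monooxygenases are enzymes of the endoplasmic reticulum membrane that carry FAD, take electrons from NADPH and place an oxygen atom on nitrogen or sulphur in small molecules. In the liver they act beside the cytochromes P450 on drugs, dietary amines and sulphides, and on a few endogenous substrates such as hypotaurine, the precursor of taurine. Members of the family are known for expression that differs with species, sex, age and tissue. Fmo1 is the broadest in its substrates, Fmo2 is best known as a lung enzyme and Fmo4 is the least studied. Fmo5, an abundant liver member, carries out Baeyer-Villiger oxidation of ketones more readily than the oxidation typical of its relatives.

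The 11 probes are each 60 bases long. In the array's mm9 positions, 9 of them lie on the minus strand of chromosome 1 between 164738476 and 164827931, a stretch of 89.5 kb with Fmo4 first, then Fmo1, then Fmo2. The 2 probes of Fmo5 lie on the plus strand of chromosome 3 between 97456410 and 97457447. The opening 30 bases of the probes on which the results turn are shown, 5′ to 3′ in the sense of the transcript, because probes of the same gene did not always give the same answer and each value belongs to the stretch it hybridised with.
Fmo5 A_55_P1959595: acagaaaatagctaagttccggcatgtggc
Fmo5 A_52_P1147453: aatacatgtaagcagatacgtgagaattca
Fmo1 A_52_P508991: gatctaactggcttttcaaatgtatggagt
Fmo1 A_55_P2153783: aactcagccatctttgatgctgtcatggtc
Fmo2 A_51_P301998: cttctttttccaacttcaggggttttaatc
Fmo2 A_52_P273891: acattataggtaagaaaagcaaatctcagc
Fmo4 A_55_P2647282: acaaatgtctgcaaagaaatgtcatgttac
The first Fmo5 probe starts at base 2484 of its target transcript and the other at base 3462. The Fmo1 probes start at bases 1921 and 721, the Fmo2 probes at bases 1627 and 2924, and the Fmo4 probe at base 206. A gene is described by its brightest tested probe, named first for each gene here, and its other probes are given beside it. Fmo1 has 2 further tested probes against alternative transcripts, A_55_P2792920 and A_52_P408245. The remaining 2 probes of Fmo2, A_52_P1138659 and A_55_P2713731, were well above background on 2 and 0 of the 48 arrays and were not tested.

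Values are quantile-normalised log2 spot intensities, so a log2 difference of 0.62 on a probe is a 1.54-fold difference in its signal, and levels of different probes cannot be set against each other. A probe was called when limma gave it an adjusted p no higher than 0.05, after Benjamini-Hochberg adjustment over the 33323 probes of a comparison. The arrays had median spot intensities of 56 to 91 over local backgrounds of 20 to 36, with 28234 to 38217 spots well above background and no saturated spot. In the check of the targeted gene, the 2 Ppara probes were lower in Pparα-/- than in WT livers, at log2 differences of -0.65 and -1.11 on CTRL and -1.08 and -1.29 on HFD, all called. They were also lower in Pparαhep-/- livers on HFD, at -0.85 and -0.68. On CTRL, 1 of them was lower in Pparαhep-/- livers, at -0.42, and the other differed by -0.10 (adjusted p = 0.454 in limma). Whether these probes lie in the deleted exon is not known here. The hepatocyte markers were bright in every group, with 6 of 6 tested. Pparαhep-/- CTRL mouse 1, WT CTRL mouse 6 and WT HFD mouse 2 had the lowest array weights in limma, 0.189, 0.208 and 0.343, on a scale that reached 2.528. Arrays were washed in 2 batches, which divided each group 4 and 4, except Pparαhep-/- CTRL (3 and 5) and Pparαhep-/- HFD (5 and 3). The batch was a term of the fit. Values within each batch are given beside the results, because several of them differed between batches.

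Fmo5 rose on the high-fat diet in livers that lacked Pparα in hepatocytes, by 1.54-fold, and not detectably in WT livers. On the high-fat diet its level separated Pparαhep-/- livers from WT livers without overlap on both of its probes. On the dimmer probe the separation was narrow, with WT livers up to 10.42 and Pparαhep-/- livers from 10.44. In that comparison 26.7% of all probes were called, and the share of all probes without overlap is not given here. The whole-body deletion gave a different answer from each probe: in Pparα-/- livers the brighter probe rose by 1.29-fold and the other changed by 0.03 log2 units, which was not called.

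On the brighter Fmo5 probe, A_55_P1959595, the log2 values on CTRL had a lowest, median and highest of 15.15, 15.60 and 16.22 in WT livers, 15.19, 15.64 and 15.81 in Pparαhep-/- livers and 15.03, 15.29 and 15.67 in Pparα-/- livers. On HFD they were 15.22, 15.51 and 15.68 in WT, 15.78, 16.07 and 16.57 in Pparαhep-/- and 15.42, 15.60 and 15.98 in Pparα-/- livers. Every Pparαhep-/- HFD mouse lay above every WT HFD mouse, whereas the other neighbouring groups overlapped. The group means in rising order were Pparα-/- CTRL at 15.31 ± 0.19, WT HFD at 15.51 ± 0.15, Pparαhep-/- CTRL at 15.60 ± 0.18, WT CTRL at 15.62 ± 0.37, Pparα-/- HFD at 15.63 ± 0.21 and Pparαhep-/- HFD at 16.08 ± 0.23 (SD, n = 8 each). The 4 groups between the lowest and the highest lay within 1 SD of each other. On the dimmer probe, A_52_P1147453, the means were 10.27 ± 0.14 in WT HFD and 10.87 ± 0.32 in Pparαhep-/- HFD livers, with no mouse in common between the ranges of 10.03 to 10.42 and 10.44 to 11.44. The other 4 groups had means between 10.30 and 10.39 on that probe.

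**Figure D1:**
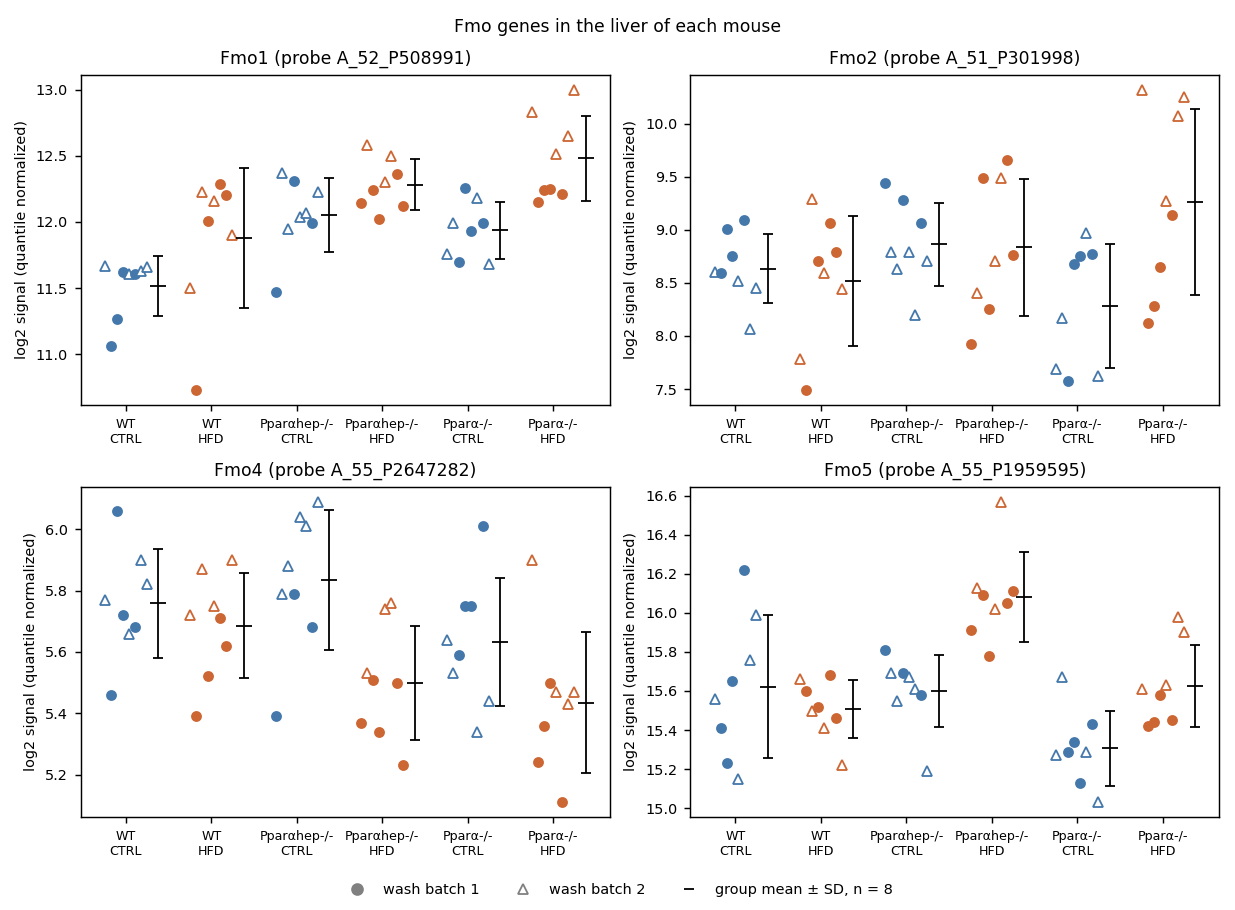
Normalised log2 intensity (vertical axis) of the brightest tested probe of Fmo1, Fmo2, Fmo4 and Fmo5 in each of the 48 livers, by genotype and diet (horizontal axis). Circles are wash batch 1, open triangles wash batch 2, and bars the mean ± SD of 8 mice. The 8 Pparαhep-/- HFD mice lie at 15.78 or higher for Fmo5, above all 8 WT HFD mice, and the Pparα-/- HFD mice of wash batch 2 lie above those of batch 1 for Fmo2.

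The HFD comparison asked, within each genotype, which of the 4 genes followed the diet. In WT livers 1 of the 9 Fmo probes was called, against 18.7% of all 33323 probes, with a median log2 change of -0.03 over the 9 and -0.011 over all. In Pparαhep-/- livers 3 of 9 were called, 2 higher and 1 lower, against 20.2%, with medians of 0.22 and -0.013. The Pparα-/- livers had 4 of 9 called, all higher, against 24.8%, with medians of 0.12 and -0.018. The 9 probes are not independent, since 4 belong to Fmo1 and 2 each to Fmo2 and Fmo5. These counts lie within 2 probes of what the share of all probes would give.

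Fmo5 on its brighter probe changed by 0.62 ± 0.10 log2 units on HFD in Pparαhep-/- livers (SE, adjusted p = 3.21e-05 in limma). All 8 HFD mice lay above the mean of the CTRL mice. It rose by 0.36 ± 0.11 in Pparα-/- livers (adjusted p = 0.0107 in limma). In WT livers it changed by -0.10 ± 0.12 (adjusted p = 0.635 in limma, 95% interval -0.35 to 0.14). The dimmer probe changed by 0.59 ± 0.12 in Pparαhep-/- livers (adjusted p = 0.000643 in limma), by 0.03 ± 0.13 in Pparα-/- livers (adjusted p = 0.879 in limma) and by -0.04 ± 0.14 in WT livers. The probes therefore gave the same call for the hepatocyte deletion and for WT, and different calls for the whole-body deletion. Within wash batches 1 and 2, the Pparαhep-/- change of the brighter probe was 0.36 (adjusted p = 0.0507 in limma) and 0.79 (adjusted p = 0.00501 in limma). That of the dimmer probe was 0.26 (adjusted p = 0.402 in limma) and 0.80 (adjusted p = 0.00616 in limma). The Pparα-/- change of the brighter probe was 0.15 (adjusted p = 0.358 in limma) and 0.55 (adjusted p = 0.0257 in limma). Its call was lost without Pparα-/- HFD mouse 7 (0.28, adjusted p = 0.0626 in limma), without array weights (0.32) and with the processed signal scaled to the 75th percentile (0.19).

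Fmo1 rose on HFD in WT and in Pparα-/- livers, and it was the member called in WT livers. Its brightest probe, A_52_P508991, ranged on CTRL over 11.06, 11.61 and 11.67 (lowest, median, highest) in WT livers, 11.47, 12.05 and 12.37 in Pparαhep-/- livers and 11.68, 11.96 and 12.26 in Pparα-/- livers. On HFD the values were 10.73, 12.09 and 12.29 in WT, 12.02, 12.27 and 12.58 in Pparαhep-/- and 12.15, 12.38 and 13.00 in Pparα-/- livers. The WT HFD group was the widest, with an SD of 0.53, and 6 of its 8 mice lay above the WT CTRL mean. The means rose from WT CTRL at 11.52 ± 0.22 through WT HFD at 11.88 ± 0.53, Pparα-/- CTRL at 11.94 ± 0.21, Pparαhep-/- CTRL at 12.05 ± 0.28 and Pparαhep-/- HFD at 12.28 ± 0.19 to Pparα-/- HFD at 12.48 ± 0.32 (SD, n = 8 each). Each neighbour in this order differed by no more than the larger SD of the pair. The HFD change was 0.49 ± 0.13 in WT (adjusted p = 0.00564 in limma), 0.53 ± 0.12 in Pparα-/- (adjusted p = 0.000755 in limma) and 0.23 ± 0.11 in Pparαhep-/- livers (adjusted p = 0.14 in limma). Without array weights the WT change was 0.36 (adjusted p = 0.0927 in limma). Within wash batches 1 and 2 it was 0.72 (adjusted p = 0.0136 in limma) and 0.35 (adjusted p = 0.221 in limma) in WT livers. In Pparα-/- livers it was 0.19 (adjusted p = 0.485 in limma) and 0.77 (adjusted p = 0.00106 in limma).

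The other 3 Fmo1 probes were not called in any of the 12 comparisons. With a mouse left out, A_52_P408245 was called between Pparα-/- and WT livers on HFD without Pparα-/- HFD mouse 2, 4 or 5 (0.28 to 0.30, against 0.23 with all mice) and between Pparαhep-/- and WT livers on HFD without Pparαhep-/- HFD mouse 5 (0.32). A_55_P2153783, which lies earlier in the same transcript, changed on HFD by 0.25 in WT, 0.19 in Pparαhep-/- and 0.12 in Pparα-/- livers. The 2 probes against alternative transcripts changed by between -0.12 and 0.22. Across the 48 arrays the brightest probe correlated with A_55_P2153783 at r = 0.73, with A_55_P2792920 at r = 0.34 and with A_52_P408245 at r = 0.41. The tested probe pair of Fmo2 correlated at r = 0.94 and that of Fmo5 at r = 0.79. These correlations describe probes hybridised to the same 48 samples. The Fmo1 results therefore rest on 1 of 4 probes.

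Fmo2 rose on HFD in Pparα-/- livers on both of its tested probes. On A_51_P301998 the lowest, median and highest log2 values on CTRL were 8.07, 8.59 and 9.09 in WT, 8.20, 8.79 and 9.44 in Pparαhep-/- and 7.58, 8.43 and 8.97 in Pparα-/- livers. On HFD they were 7.49, 8.65 and 9.29 in WT, 7.92, 8.73 and 9.66 in Pparαhep-/- and 8.12, 9.20 and 10.32 in Pparα-/- livers. The Pparα-/- HFD group had the highest median and the widest spread, and every pair of groups overlapped. Its mean of 9.26 ± 0.88 was followed downwards by Pparαhep-/- CTRL at 8.86 ± 0.39, Pparαhep-/- HFD at 8.83 ± 0.65, WT CTRL at 8.63 ± 0.32, WT HFD at 8.52 ± 0.61 and Pparα-/- CTRL at 8.28 ± 0.58 (SD, n = 8 each). No neighbours in that order differed by more than the larger SD of the pair. The HFD change in Pparα-/- livers was 0.93 ± 0.29, or 1.91-fold (adjusted p = 0.0137 in limma, higher in 7 of 8 mice than the CTRL mean). On A_52_P273891 it was 0.77 ± 0.21 (adjusted p = 0.00619 in limma). In WT livers it was 0.01 ± 0.32 and -0.01 ± 0.24, and in Pparαhep-/- livers 0.22 ± 0.27 and 0.10 ± 0.20, none of them called. Without Pparα-/- HFD mouse 7 or 8 the change of the brighter probe was 0.68 or 0.72 and no longer called (adjusted p = 0.0885 and 0.0654 in limma).

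The rise of Fmo2 in Pparα-/- HFD livers was carried by the mice of wash batch 2. The 4 Pparα-/- HFD mice washed in batch 2 had log2 values of 9.27 to 10.32 on the brighter probe, and the 4 washed in batch 1 had values of 8.12 to 9.14, with no overlap. Within batch 1 the HFD change was -0.14 (adjusted p = 0.82 in limma) on the brighter probe and -0.06 (adjusted p = 0.895 in limma) on the dimmer. Within batch 2 it was 1.72 (adjusted p = 0.00108 in limma) and 1.41 (adjusted p = 0.00022 in limma). The negative signs of batch 1 came with the array weights, since the unweighted batch 1 means were 8.45 on CTRL and 8.55 on HFD on the brighter probe and 6.50 and 6.59 on the dimmer. In batch 1 the change was thus within the spread, with no direction shown. The same 8 mice were divided by batch for Fmo1, at 12.51 to 13.00 in batch 2 and 12.15 to 12.25 in batch 1, and for Fmo5, at 15.61 to 15.98 and 15.42 to 15.58.

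A test of the difference itself, added after these values were seen, compared the HFD change in batch 2 with that in batch 1 within each genotype. In Pparα-/- livers Fmo2 differed by 1.86 ± 0.45 (adjusted p = 0.235 in limma) on the brighter probe and by 1.48 ± 0.31 (adjusted p = 0.0855 in limma) on the dimmer. None of the 9 Fmo probes was called and 7 of 9 had an unadjusted p under 0.05. Over all probes 1 of 33323 was called, the Fosb probe, which is 0.003%, with 2779 at an unadjusted p under 0.05. In WT and Pparαhep-/- livers 0% of probes were called by limma, with 1845 and 1654 of 33323 at an unadjusted p under 0.05, of which 0 and 3 were Fmo probes. With 3 to 5 mice per group in a batch, these intervals are wide. What distinguished the mice of the batches other than the wash is not given in the labels, and its part in the result was not tested.

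**Figure D2:**
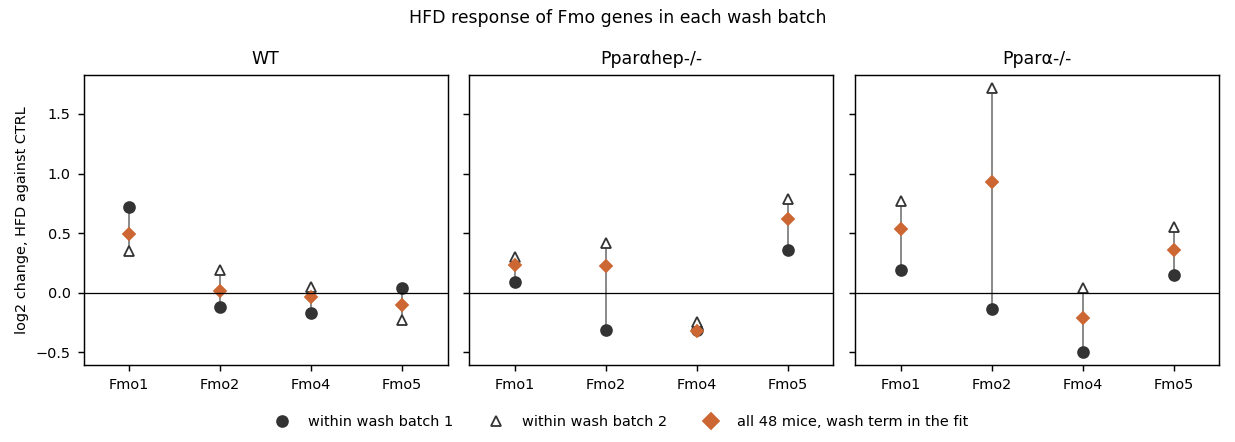
Log2 change on HFD against CTRL (vertical axis) of the brightest probe of each gene (horizontal axis), with 1 panel for each genotype. Circles are values within wash batch 1, open triangles within wash batch 2 and diamonds in all 48 mice. Grey lines join the values of batches 1 and 2 and are not intervals. In Pparα-/- livers the array-weighted change of Fmo2 was -0.14 in batch 1, where the unweighted means were 8.45 on CTRL and 8.55 on HFD, and 1.72 in batch 2, and Fmo1 by 0.19 and 0.77.

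Fmo4 was the only member that fell on HFD in a called comparison, and it was dim. Its probe was well above background on 24 of the 48 arrays. By group this was 4 of 8 in WT CTRL, 5 in WT HFD, 7 in Pparαhep-/- CTRL, 3 in Pparαhep-/- HFD, 2 in Pparα-/- CTRL and 3 in Pparα-/- HFD livers. The lowest, median and highest log2 values were 5.46, 5.75 and 6.06 in WT CTRL, 5.39, 5.72 and 5.90 in WT HFD, 5.39, 5.83 and 6.09 in Pparαhep-/- CTRL and 5.23, 5.51 and 5.76 in Pparαhep-/- HFD livers. Those of Pparα-/- livers were 5.34, 5.62 and 6.01 on CTRL and 5.11, 5.45 and 5.90 on HFD. All 6 groups overlapped, and their means, from 5.44 to 5.83, carried SDs of 0.17 to 0.23. The HFD change was -0.32 ± 0.09 in Pparαhep-/- livers (adjusted p = 0.00654 in limma, lower in 8 of 8 mice than the CTRL mean). In Pparα-/- livers it was -0.21 ± 0.09 (adjusted p = 0.0806 in limma), but was called without Pparα-/- CTRL mouse 2 or 6 or Pparα-/- HFD mouse 1 (-0.24 to -0.30). There it was -0.50 within wash batch 1 (adjusted p = 0.0109 in limma) and 0.04 within wash batch 2 (adjusted p = 0.806 in limma). The difference between the batches was 0.54 ± 0.14, which over all probes was not called (adjusted p = 0.252 in limma). The change was -0.04 ± 0.10 in WT livers (adjusted p = 0.848 in limma). In Pparαhep-/- livers the size of the change differed between settings. With the scanner's processed signal, which differs from the main values in both background correction and scaling, it was -0.76. With a normexp background correction it was -0.19, and both were called. Which step moved the size was not tested. Without array weights the Pparαhep-/- change was -0.30 and was not called (adjusted p = 0.0634 in limma). Nor was it called within wash batch 1 (-0.31, adjusted p = 0.106 in limma) or 2 (-0.25, adjusted p = 0.109 in limma).

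**Figure D3:**
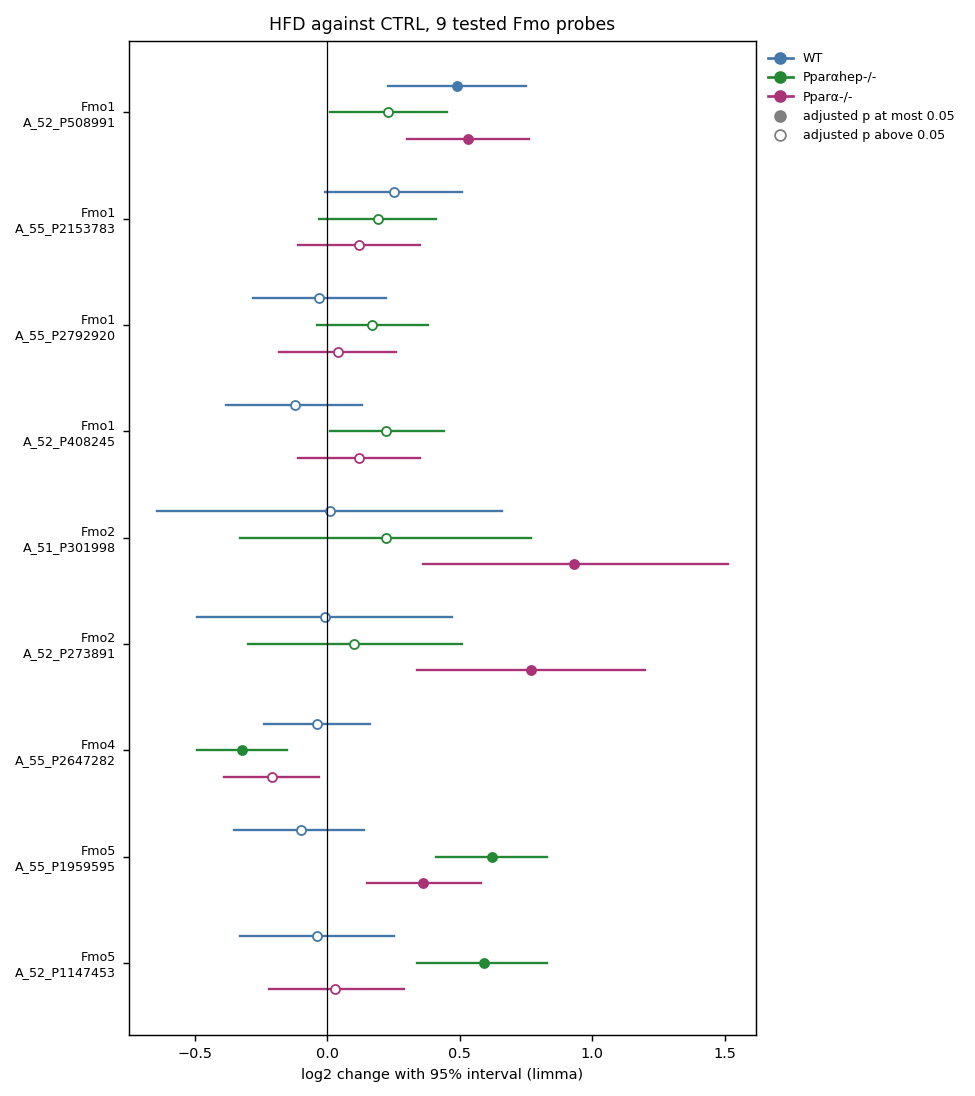
Log2 change on HFD against CTRL (horizontal axis) for the 9 tested probes of Fmo1, Fmo2, Fmo4 and Fmo5 in WT, Pparαhep-/- and Pparα-/- livers. Bars are 95% intervals and filled symbols were called by limma (adjusted p up to 0.05). Both Fmo5 probes are filled in Pparαhep-/- livers at 0.62 and 0.59, both Fmo2 probes in Pparα-/- livers at 0.93 and 0.77, and the brightest Fmo1 probe alone in WT livers at 0.49.

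The genotypes were then compared on each diet, to ask which members depended on Pparα in hepatocytes or elsewhere. On CTRL the difference lay in Fmo1 alone. In Pparα-/- against WT livers 1 of 9 Fmo probes was called, against 34.2% of all probes. In Pparαhep-/- against WT livers it was also 1 of 9, against 24.7%. The median differences over the 9 probes were -0.02 and 0.11, beside -0.018 and -0.013 over all. Between the mutants on CTRL, limma called 0 of 9, against 25.2% of all probes, with 2 of 9 at an unadjusted p under 0.05 and medians of -0.12 and 0.001. Of these, Fmo4 at -0.23 was called in wash batch 2 (-0.50), without the wash term (-0.27) and without Pparα-/- CTRL mouse 4 or 7, Pparα-/- HFD mouse 1 or Pparαhep-/- CTRL mouse 1 or 2 (-0.23 to -0.32). Fmo5 at -0.23 was called without Pparαhep-/- CTRL mouse 8 (-0.31). Fmo1 on its brightest probe was higher than in WT by 0.47 ± 0.13 in Pparα-/- livers (adjusted p = 0.00413 in limma) and by 0.59 ± 0.13 in Pparαhep-/- livers (adjusted p = 0.000427 in limma). All 8 Pparα-/- CTRL mice, from 11.68, lay above all WT CTRL mice, which reached 11.67. Pparαhep-/- CTRL mouse 1 lay at 11.47, within the WT range. Within wash batches 1 and 2 the difference was 0.77 (adjusted p = 0.0117 in limma) and 0.50 (adjusted p = 0.0293 in limma) for Pparαhep-/- livers. For Pparα-/- livers it was 0.70 (adjusted p = 0.0081 in limma) and 0.33 (adjusted p = 0.151 in limma).

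On HFD, 4 of 9 Fmo probes differed between Pparα-/- and WT livers, 3 higher and 1 lower, against 45.7% of all probes, with medians of 0.23 and -0.027. Between Pparαhep-/- and WT livers 3 of 9 differed, all higher, against 26.7%, with medians of 0.29 and -0.018. Between Pparα-/- and Pparαhep-/- livers 2 of 9 differed, both lower in Pparα-/- and both of Fmo5, against 30.6%, with medians of -0.07 and -0.004. None of these shares stood far from the share over all probes, so the differences are those of single genes. Fmo5 was 1.65-fold higher in Pparαhep-/- than in WT livers (0.72 ± 0.11 log2 units, adjusted p = 1.65e-06 in limma), and 0.67 ± 0.13 higher on the dimmer probe (adjusted p = 9.73e-05 in limma). In Pparα-/- against WT livers it differed by 0.24 ± 0.11 and 0.07 ± 0.13 (adjusted p = 0.0605 and 0.696 in limma). The former was called when Pparα-/- HFD mouse 2 or 3, WT HFD mouse 1 or 6, Pparαhep-/- CTRL mouse 8 or Pparαhep-/- HFD mouse 6 was left out (0.24 to 0.28). It differed in Pparα-/- against Pparαhep-/- livers by -0.49 ± 0.10 and -0.60 ± 0.12 (adjusted p = 0.000135 and 7.38e-05 in limma). The Pparαhep-/- difference from WT held on the brighter probe within wash batch 1 (0.50, adjusted p = 0.00381 in limma) and batch 2 (0.95, adjusted p = 0.000652 in limma). On the dimmer probe it was 0.51 (adjusted p = 0.0641 in limma) and 0.83 (adjusted p = 0.00271 in limma).

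Fmo1 on HFD was higher than in WT by 0.51 ± 0.11 in Pparα-/- livers (adjusted p = 0.000233 in limma) and by 0.33 ± 0.11 in Pparαhep-/- livers (adjusted p = 0.0278 in limma). All 8 mice of either mutant lay above the WT HFD mean of 11.88, though both ranges overlapped that of WT. The Pparα-/- difference was 0.17 (adjusted p = 0.492 in limma) in wash batch 1 and 0.75 (adjusted p = 3.98e-05 in limma) in batch 2. The Pparαhep-/- difference was 0.14 (adjusted p = 0.627 in limma) and 0.45 (adjusted p = 0.0257 in limma). The Pparαhep-/- call was also lost with the processed signal (0.26), and without the wash term (0.31). It was lost too when Pparαhep-/- HFD mouse 6 or 7 or WT HFD mouse 1 or 8 was left out (0.29 to 0.31, adjusted p from 0.0542 to 0.0893 in limma). The probe A_55_P2153783 differed by -0.02 ± 0.11 between Pparα-/- and WT HFD livers, so the higher Fmo1 signal of Pparα-/- livers was not seen earlier in the same transcript.

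Fmo2 on HFD was higher in Pparα-/- than in WT livers by 0.74 ± 0.28 (adjusted p = 0.0294 in limma) and, on the dimmer probe, by 0.66 ± 0.21 (adjusted p = 0.00796 in limma). Within wash batch 1 the differences were -0.23 (adjusted p = 0.645 in limma) and -0.19 (adjusted p = 0.604 in limma) with array weights. The unweighted batch 1 means, 8.55 in Pparα-/- and 8.51 in WT livers and 6.59 and 6.56 on the dimmer probe, had the opposite order, so no direction was shown there. Within batch 2 they were 1.44 (adjusted p = 0.000198 in limma) and 1.28 (adjusted p = 5.96e-06 in limma). The call of the brighter probe was lost when Pparα-/- HFD mouse 1, 7 or 8 or WT HFD mouse 1, 5 or 8 was left out (0.48 to 0.71, adjusted p from 0.0516 to 0.18 in limma). That of the dimmer probe was lost without Pparα-/- HFD mouse 7 (0.48) or 8 (0.49). Fmo2 did not pass the test in any other genotype comparison over all 48 mice. Between Pparα-/- and Pparαhep-/- livers on HFD it was higher within batch 2 by 0.99 and 0.73 (adjusted p = 0.0136 and 0.00583 in limma), and on the dimmer probe without Pparα-/- HFD mouse 3 by 0.56. Fmo4 on HFD was lower in Pparα-/- than in WT livers, at a log2 difference of -0.29 ± 0.09 (adjusted p = 0.00644 in limma). It was -0.26 (adjusted p = 0.0911 in limma) within batch 1, -0.34 (adjusted p = 0.00352 in limma) within batch 2, -0.83 with the processed signal and -0.21 (adjusted p = 0.109 in limma) when dim probes were kept in the table.

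**Figure D4:**
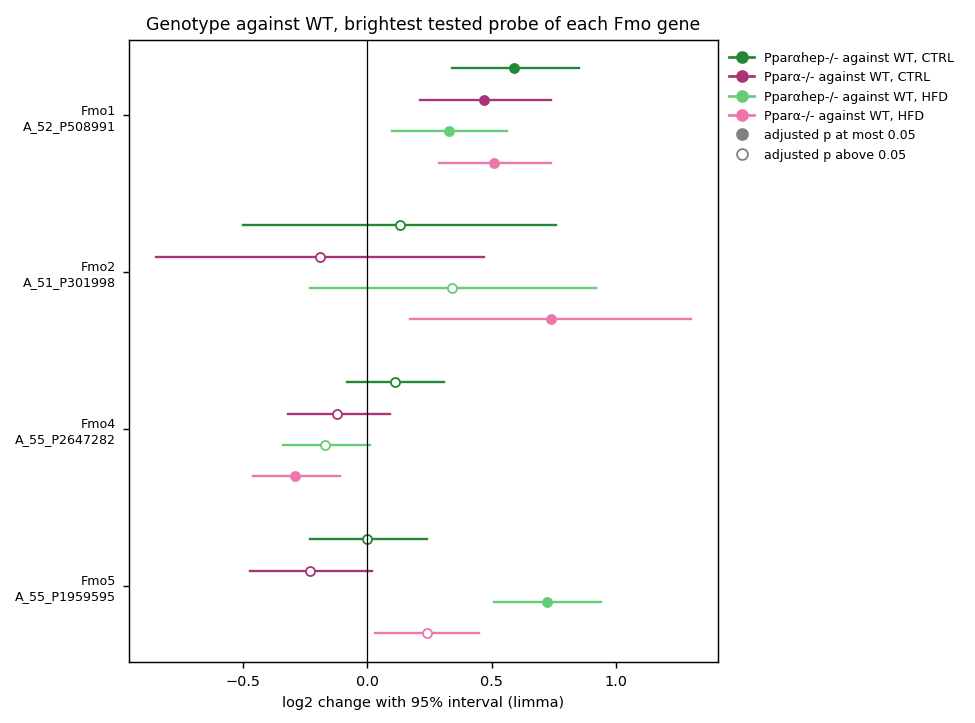
Log2 difference from WT (horizontal axis, with 95% intervals) of Pparαhep-/- and Pparα-/- livers on CTRL and on HFD for the brightest probe of each gene. Filled symbols were called by limma (adjusted p up to 0.05). Fmo1 is filled in all 4 comparisons, from 0.33 to 0.59, and Fmo5 is filled for Pparαhep-/- on HFD alone, at 0.72.

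The dependence of the diet response on genotype was tested as an interaction. Between WT and Pparαhep-/- livers 2 of 9 Fmo probes were called, both of Fmo5 and both with the lower response in WT, against 10.4% of all probes, with medians of -0.20 and -0.005. Between WT and Pparα-/- livers 1 of 9 was called, again Fmo5, against 14.3%, with medians of -0.08 and -0.001. Between Pparαhep-/- and Pparα-/- livers limma called 0 of 9, against 3.42%, with 2 of 9 at an unadjusted p under 0.05 and medians of 0.07 and 0.003. The dimmer Fmo5 probe, at 0.55 ± 0.18 in that comparison, was called without Pparαhep-/- CTRL mouse 4 (0.64) or Pparαhep-/- HFD mouse 1 (0.61) or 4 (0.59). The Fmo5 response of WT less that of Pparαhep-/- livers was -0.72 ± 0.16 (adjusted p = 0.00287 in limma) on the brighter probe and -0.63 ± 0.19 (adjusted p = 0.027 in limma) on the dimmer. Within wash batches it was -0.32 (adjusted p = 0.229 in limma) and -1.03 (adjusted p = 0.0504 in limma) on the brighter probe, and -0.15 and -0.94 on the dimmer. The direction was the same in both batches and neither batch alone passed the test. Without array weights it was -0.61 on the brighter probe (adjusted p = 0.0538 in limma). The call of the dimmer probe was lost when Pparαhep-/- CTRL mouse 8, Pparαhep-/- HFD mouse 6, WT CTRL mouse 1 or 4 or WT HFD mouse 8 was left out (-0.46 to -0.59).

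The Fmo5 response of WT less that of Pparα-/- livers was -0.46 ± 0.16 on the brighter probe (adjusted p = 0.0456 in limma) and -0.08 ± 0.19 on the dimmer (adjusted p = 0.832 in limma). It lay at the threshold, and the call was lost when any of 17 mice was left out. These were Pparα-/- CTRL mice 1, 3, 4, 5, 6 and 8, Pparα-/- HFD mice 7 and 8, WT CTRL mice 1, 4, 6, 7 and 8 and WT HFD mice 3, 5, 7 and 8 (differences of -0.38 to -0.49, adjusted p from 0.0501 to 0.117 in limma). The responses of Fmo1, Fmo2 and Fmo4 were not shown to differ between genotypes. For Fmo2, the response of WT less that of Pparα-/- livers was -0.92 ± 0.43 and -0.78 ± 0.32 on the 2 probes (adjusted p = 0.143 and 0.0896 in limma), so a rise called in Pparα-/- livers alone was not called different from that in WT, except on the dimmer probe without Pparα-/- HFD mouse 3 (-0.97) or within batch 2 (-1.38). For Fmo1 it was -0.04 ± 0.17, and the response of WT less that of Pparαhep-/- livers was 0.26 ± 0.17 (adjusted p = 0.328 in limma).

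No other gene of the family was measured well enough to be set beside these 4. Fmo6 and Fmo9 are on the array but were not bright enough to be tested, and Fmo12 and Fmo13 have no probe under those names. Around the enzymes, the genes that supply NADPH, the electron source of these reactions, moved in both directions. In Pparα-/- against WT livers on HFD, 2 of 6 were higher and 2 lower, with a median of -0.17. G6pdx, the entry enzyme of the pentose phosphate pathway, was higher by 0.87 ± 0.16 and H6pd, its counterpart in the endoplasmic reticulum, by 0.22 ± 0.08. Malic enzyme Me1 differed by -3.04 ± 0.37 and Idh1, the cytosolic isocitrate dehydrogenase, by -0.74 ± 0.07. On CTRL the same comparison gave 1 higher and 4 lower of 6, with a median of -0.42. In Pparαhep-/- against WT livers 1 was higher and 0 lower on CTRL, and 0 and 2 on HFD. The diet gave 1 higher and 1 lower in WT, 0 and 2 in Pparαhep-/- and 1 and 2 in Pparα-/- livers.

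Among the genes of the pathway that ends with taurine, to which Fmo1 contributes the oxidation of hypotaurine, 5 of 6 were tested. In Pparα-/- against WT livers on HFD 2 were lower and 0 higher, with a median of -0.23. Csad, the decarboxylase that makes hypotaurine, differed by -1.53 ± 0.28, and Baat, which conjugates bile acids with taurine, by -0.48 ± 0.07. Cdo1, the cysteine dioxygenase at the head of the pathway, rose on HFD in Pparα-/- livers by 0.46 ± 0.09. Slc6a6, the taurine transporter, fell by 0.67 on the log2 scale on HFD in WT livers. Of the 4 other electron carriers of the endoplasmic reticulum tested, Cyb5a was higher by 0.47 ± 0.06 in Pparα-/- than in WT livers on HFD, while Cyb5b and Cyb5r3 differed by -0.59 ± 0.09 and -0.52 ± 0.08. In a different comparison, Pparαhep-/- against WT livers on HFD, Por, which passes electrons to the cytochromes P450, differed by -0.66 ± 0.17. There Cyb5a, Cyb5b and Cyb5r3 differed by 0.14, 0.06 and -0.19 and were not called. Of 4 genes for the flavin cofactor, 1 was lower in Pparα-/- against WT livers on HFD, Slc52a2, a riboflavin transporter, at -0.59 ± 0.09, and 0 were higher.

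Of 8 transcription factors of the liver, 1 was higher and 1 lower in Pparα-/- against WT livers on HFD, with a median of -0.12. They were Ahr, the receptor for aromatic pollutants, at 0.51 ± 0.13 and the hepatocyte factor Hnf4a at -0.29 ± 0.09. Of the genes near the members on chromosomes 1 and 3, 9 of 11 were tested, and 2 were higher and 1 lower in the same comparison, with a median of 0.08. In Pparαhep-/- against WT livers on HFD, where Fmo5 was higher, 3 of these 9 were higher and 0 lower. Of all probes, 13.3% were higher and 13.4% lower there. The 3 were the chromatin remodeller Chd1l at 0.48 ± 0.10, the AMP-kinase subunit Prkab2 at 0.40 ± 0.11 and Prrx1 at 0.35 ± 0.09. The list pools genes of both chromosomes, so not all of them lie near Fmo5. Because the family is known for sex-dependent expression, genes with a sex bias in mouse liver were also counted. Of 10 male-biased genes, 8 were lower and 0 higher on HFD in Pparα-/- livers, with a median of -1.09. In Pparαhep-/- livers 4 were lower, with a median of -0.56, and 1 was higher and 0 lower in WT livers, with a median of -0.20. The Pparα-/- median was -0.76 with 1 lower in wash batch 1 and -1.34 with 7 lower in batch 2. In limma's test of the difference between batches, added after the values were seen, 0 of the 10 were called and 4 had an unadjusted p under 0.05, with a median difference of -0.59. Of 11 female-biased genes 8 were tested. On HFD 2 were higher and 1 lower in WT livers, with a median of 0.39, 3 and 1 in Pparαhep-/- livers, with a median of 0.12, and 1 and 1 in Pparα-/- livers, with a median of 0.06. The steroid and drug hydroxylase Cyp2b9 rose by 4.77 ± 0.70 in WT and by 5.43 ± 0.59 in Pparαhep-/- livers, and its relative Cyp2b13 by 3.67 ± 0.32 in Pparαhep-/- livers. The hydroxyacid oxidase Hao2 rose by 0.95 ± 0.28 in Pparαhep-/- and by 1.20 ± 0.29 in Pparα-/- livers, and the peroxisomal transporter Abcd2 by 1.02 ± 0.26 in WT livers. Cyp2c40 was lower on HFD in all 3 genotypes, at -0.54 in WT, -0.62 in Pparαhep-/- and -0.83 in Pparα-/- livers.

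Markers of other liver cells moved with the same groups. On HFD in Pparαhep-/- livers, where Fmo5 rose, 3 of 6 markers of stellate cells and fibroblasts were higher than on CTRL, with a median of 0.46, and 2 of 5 macrophage markers, with a median of 0.26. They were the collagens Col1a1 at 2.18 ± 0.48 and Col3a1 at 1.56 ± 0.39, the matrix proteoglycan Dcn at 0.54 ± 0.18, and Adgre1 and Cd68 at 0.65 ± 0.21 and 0.69 ± 0.21. Of 4 neutrophil markers 1 was higher, Retnlg at 0.72 ± 0.22. Of 6 endothelial markers 2 were higher, Stab2 at 0.38 ± 0.08 and Lyve1 at 0.72 ± 0.23, with a median of 0.04, and of 4 cholangiocyte markers 1, Sox9 at 0.54 ± 0.15, with a median of 0.16. Sox9 was also higher in Pparαhep-/- than in WT livers on HFD, by 0.47 ± 0.16. The summed stellate signal ranged from 37132 to 67485 in Pparαhep-/- HFD and from 24107 to 88857 in Pparαhep-/- CTRL livers, the summed macrophage signal from 22648 to 52002 and from 23185 to 34963, and the summed neutrophil signal from 1382 to 4263 and from 1056 to 2120. In Pparα-/- livers on HFD 6 of 6 markers of stellate cells and fibroblasts were higher than on CTRL, with a median of 0.64, and 5 of 5 macrophage markers, with a median of 0.88. The summed stellate signal, over linear intensities of the 6 markers, ranged from 42399 to 65115 in Pparα-/- HFD and from 16142 to 58625 in Pparα-/- CTRL livers. The summed macrophage signal ranged from 28499 to 58201 and from 15103 to 33924. Of the 6 endothelial markers 2 were higher, with a median of 0.23. Of the 4 neutrophil markers 3 were higher, with a median of 0.87, and their summed signal ranged from 2366 to 5687 in Pparα-/- HFD and from 1182 to 3970 in Pparα-/- CTRL livers. Between wash batches 2 and 1 these HFD changes had median differences of -1.06 (neutrophil), -0.29 (stellate) and -0.52 (macrophage). In limma's test of that difference 0 of these markers were called. An unadjusted p under 0.05 was found for 3 neutrophil, 2 stellate and 0 macrophage markers. In Pparαhep-/- against WT livers on HFD, where Fmo5 separated the groups, 5 of 6 stellate and 4 of 5 macrophage markers were higher, with medians of 0.86 and 0.99. Of the neutrophil markers S100a9 alone was called, at 1.03 ± 0.38 (adjusted p = 0.0398 in limma). S100a8, Retnlg and Ly6g differed by 1.00, 0.58 and -0.17. The summed stellate signal ranged from 37132 to 67485 in Pparαhep-/- and from 14999 to 89497 in WT livers, and the summed macrophage signal from 22648 to 52002 and from 10677 to 44917. In Pparα-/- against WT livers on HFD, where Fmo1, Fmo2 and Fmo4 were called, 6 of 6 stellate, 5 of 5 macrophage and 3 of 4 neutrophil markers were higher, with medians of 1.17, 1.20 and 1.21. Among them were Col1a1 at 1.52 ± 0.49, Adgre1 at 1.75 ± 0.21 and Cd68 at 1.68 ± 0.22. The summed signals of these Pparα-/- livers, given above, compare with 14999 to 89497 (stellate), 10677 to 44917 (macrophage) and 761 to 30201 (neutrophil) in WT HFD livers. On CTRL, where Fmo1 was called in either mutant against WT, 1 of 6 stellate, 2 of 5 macrophage, 1 of 4 neutrophil and 3 of 6 endothelial markers were higher in Pparαhep-/- livers, with medians of 0.46, 0.61, -0.18 and 0.27. They included Lrat, the retinol-esterifying enzyme of stellate cells, at 0.87 ± 0.20, and the macrophage genes Cd5l and Vsig4 at 0.75 ± 0.23 and 0.72 ± 0.23. In Pparα-/- livers on CTRL the numbers higher were 1, 1, 0 and 2, with 1 endothelial marker lower. The summed stellate signal ranged from 16458 to 67969 and the summed macrophage signal from 12795 to 28355 in WT CTRL livers. Endothelial markers were higher in 4 of 6 in both mutants on HFD, with medians of 0.36 in Pparα-/- and 0.26 in Pparαhep-/- livers, and 0 or 1 of them was lower. Of 6 hepatocyte markers 0 were higher and 2 lower in Pparα-/- against WT livers on HFD, with a median of -0.10, and the same 2, Apoa1 and Cps1, were lower in either mutant against WT livers on CTRL. Cps1, the first enzyme of the urea cycle, fell on HFD by 0.88 ± 0.21 in WT, by 0.53 ± 0.18 in Pparαhep-/- and by 0.71 ± 0.19 in Pparα-/- livers. It differed from WT livers on CTRL by -0.56 ± 0.21 in Pparαhep-/- and by -0.62 ± 0.22 in Pparα-/- livers. The part of these cells in the Fmo signals was not tested, and in RNA of whole liver fewer cells of a type and less RNA per cell cannot be told apart.

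In WT HFD livers the summed signal of the 3 tested white adipocyte markers ranged from 425 to 47018, against 232 to 390 in Pparα-/- HFD livers. Of the 3, Cfd alone was called on HFD in WT livers, at 5.79 ± 0.72, while Lep changed by 0.00 ± 0.09 and Retn by 0.06 ± 0.11 (adjusted p = 0.984 and 0.792 in limma). The defining markers Adipoq and Plin1 were not bright enough to be tested. The neutrophil sum of WT HFD mouse 2 was 30201, where the group's median was 1154. The cholangiocyte sums of Pparαhep-/- CTRL mouse 1 and WT CTRL mouse 6 were 2087 and 1922, where the medians were 454 and 534. Leaving out these 3 mice, which also had the lowest array weights, was tried after the values were seen. It removed the call of Fmo1 between Pparαhep-/- and WT livers on HFD (0.27, adjusted p = 0.0526 in limma) and that of the Fmo5 response of WT less that of Pparα-/- livers (-0.45, adjusted p = 0.0571 in limma), and it added a call of Fmo5 between Pparα-/- and WT livers on HFD (0.25, adjusted p = 0.0479 in limma).

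Promoter windows in the RefSeq table of build GRCm38.p6 were found for 3 of the 4 members, with 2 starts for Fmo2 and no window for Fmo1. The site that PPARα binds with RXR was searched in the 250 bases before each start on both strands, as the direct repeat, 2 copies of AGGTCA read in the same direction with 1 base of any kind between them, and as the single hexamer AGGTCA, which the repeat contains. The exact direct repeat was in none of the 4 windows of the members and in 11 of 32851 windows in all, 0.0335%. The hexamer was in 14% of all windows and in 2 of the 4 member windows, shown here in capitals with 12 bases on each side because these are the only matches found beside the genes that moved.
Fmo2, the downstream start, chr1:162898485-162898514, minus strand: cgtttacaatgaAGGTCAtatgaccagaca
Fmo4, chr1:162812607-162812636, minus strand: tctgacaacttcTGACCTtcatccagaaat
The Fmo2 match begins 9 bases before the start, and the Fmo4 match, on the opposite strand and so written TGACCT, begins 75 bases before its start. The Fmo5 window and the other Fmo2 window held neither motif.

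Some pairs of members varied together among mice of the same group, 3 of 6 pairs passing the adjusted test of Pearson's r. After the group and wash batch means were removed, the brightest probes of Fmo1 and Fmo2 correlated across the 48 livers with Pearson's r = 0.62 and Spearman's rho = 0.65 (permutation p = 1.00e-05 for each, the smallest the 100000 permutations can give, adjusted p = 6.00e-05 over 6 pairs). The correlation was 0.58 without the 2 mice farthest from the median of Fmo1, and 0.58 and 0.72 within wash batches 1 and 2. Fmo1 and Fmo4 correlated with r = 0.39 and rho = 0.36 (permutation p = 0.00643 and 0.0109, adjusted p = 0.0193 and 0.0326), with r = 0.34 without the 2 mice farthest out and 0.50 and 0.19 within the batches. Fmo2 and Fmo5 correlated with r = 0.33 and rho = 0.32 (permutation p = 0.0226 and 0.026, adjusted p = 0.0452 and 0.039), with 0.33 without 2 mice and 0.38 and 0.29 within the batches. For Fmo1 with Fmo5, r was 0.20 and rho 0.34 (permutation p = 0.181 and 0.0191, adjusted p = 0.217 and 0.0383), and the remaining pairs, Fmo2 with Fmo4 at r = 0.28 and Fmo4 with Fmo5 at r = -0.02, did not pass the adjustment (permutation p = 0.0535 and 0.878, adjusted p = 0.0803 and 0.878). All values of a mouse come from 1 array and share its RNA and its normalisation.

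The genes whose pattern over the 48 arrays was most like each member, other Fmo genes left out and wash batch means removed, are given as a description with no test, since all points share 48 arrays and 6 groups. For Fmo1 they were Agmo, a monooxygenase of ether lipids, at r = 0.888, an array entry named NAP114348-1 at r = 0.887 and Echs1, a mitochondrial enoyl-CoA hydratase, at r = 0.882. For Fmo2 they were Kank3 at r = 0.664, Syce2 at r = 0.651 and the drug efflux pump Abcb1a at r = 0.649. For Fmo4 they were the fatty acid elongase Elovl6 at r = 0.653, an array entry named NAP092820-001 at r = 0.646 and the acyl-CoA synthetase Acsl5 at r = 0.636. For Fmo5 they were the calcium sensor Hpca at r = 0.756, Samd9l at r = 0.748 and the annexin Anxa5 at r = 0.730.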

How the data were processed

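Total liver RNA was labelled with Cy3 and hybridised on 48 Agilent one-colour arrays, 1 per mouse. The deposited scanner files hold spot intensity values as read by the authors with Agilent Feature Extraction 10.10.1.1, without normalisation, and a table of the whole series holds the log2 values the authors deposited after filtering, wash bath correction and quantile normalisation. The main analysis started from the median spot intensity, which was taken to log2. Outlier spots were dropped, a probe was kept where the scanner marked it well above background in 4 or more of 8 mice in any group (33323 of 56605) and values were quantile normalised. Group means were then fitted with limma 3.58.1 in R 4.3.3, with the wash batch as a term, array weights and Benjamini-Hochberg adjustment within each of 12 comparisons, and 195 missing values of kept probes were left missing in the fit. None of the 9 tested Fmo probes had a missing value. The deposited log2 values, 32815 probes of which were shared, correlated with these at 0.999 to 1.000 on every array, and served as an alternative. The scripts were tested on simulated data.

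Samples were grouped by the genotype and diet in the labels, 8 per group. Precision is limited by the number of arrays. Genes were named as in the array's annotation. Each member is described by its brightest tested probe over the 48 arrays, and the genes of each list by at most the 4 called genes of largest change. The members and the lists of related and marker genes were chosen with earlier results of these data known. Alternatives were the processed signal scaled to its 75th percentile, normexp background correction (offset 50), the deposited values, no array weights, no wash term, the slide as a block, each wash batch alone, no filter on dim probes, the replicate number as a block and each array left out. The wash batch fitted by group and the removal of the 3 arrays of lowest weight were added after the data were seen. One gene of the family is not reported here.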

Additional observations from a re-analysis of the deposited data

Results flagged for a closer look

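In 4 of the 54 sets of 8 values (9 tested probes in 6 groups), 1 mouse stood farther from the rest than Dixon's critical value for 8 samples allows, and chance alone marks about 1 in 20. In Pparαhep-/- CTRL livers mouse 1 was lowest on the brightest Fmo1 probe, at 11.47 with the next mouse at 11.95, a gap of 0.531 of the group's range. The same mouse was lowest on the Fmo1 probe A_55_P2153783, at 8.22 with the next at 8.77, a gap of 0.622 of the range. It had the lowest array weight of the series, 0.189, and the highest summed cholangiocyte signal of its group, 2087. In the same group mouse 8 was lowest on the brighter Fmo5 probe, at 15.19 with the next at 15.55, a gap of 0.575. In Pparαhep-/- HFD livers mouse 6 was highest on that probe, at 16.57 with the next at 16.13, a gap of 0.563.

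The response of Fmo5 to HFD differed between genotypes in limma's interaction test. On the brighter probe the response of WT less that of Pparαhep-/- livers was -0.72 and on the dimmer probe -0.63, and the response of WT less that of Pparα-/- livers was -0.46 on the brighter probe. All 3 of these values were farther from 0 in wash batch 2 than in batch 1.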

How the results depend on the processing

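Of 1296 values recomputed under settings other than leaving out an array, 1240 kept their side of the threshold, 38 lost a call, 14 gained one and 4 called values reversed. Of the 1240, 84 that were not called changed sign. The 4 reversed values were all Fmo2 within wash batch 1: the HFD change in Pparα-/- livers, at -0.14 on the brighter and -0.06 on the dimmer probe, and the Pparα-/- difference from WT on HFD, at -0.23 and -0.19. These signs came with the array weights: the unweighted batch 1 means were 8.45 and 8.55 in Pparα-/- CTRL and HFD and 8.51 in WT HFD livers on the brighter probe, and 6.50, 6.59 and 6.56 on the dimmer. With an array left out, 5123 of 5184 values kept their side, 92 of them not called and changed in sign, 37 lost and 24 gained a call and 0 called values reversed. The number of the 9 Fmo probes called moved as follows, given with the share of all probes called under the same setting, and the cause was not tested.

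For HFD it was 0 in WT livers both without array weights (12.6% of all probes) and in wash batch 2 (2%), 0 in Pparαhep-/- livers in batch 1 (4.93%), and 1 in Pparα-/- livers in batch 1 (9.58%). The shares as reported were 18.7%, 20.2% and 24.8% in WT, Pparαhep-/- and Pparα-/- livers. On CTRL it was 2 for Pparα-/- against WT without array weights (31%), and 1 for Pparα-/- against Pparαhep-/- both without the wash term (23.7%) and in batch 2 (17%). On HFD it was 0 for Pparα-/- against WT in batch 1 (25.3%, and 45.7% as reported), 1 for Pparαhep-/- against WT in batch 1 (6.92%, and 26.7% as reported), and 4 for Pparα-/- against Pparαhep-/- in batch 2 (19.6%). For the responses of WT and Pparαhep-/- it was 1 with the processed signal (13.2%), without the wash term (6.56%), with the slide as a block (6.37%) and without the filter (2.17%). It was 0 without array weights (0.894%) and in batch 1 (3.96%) or 2 (0.498%) alone, with 10.4% as reported. For the responses of WT and Pparα-/-, with 14.3% as reported, it was 0 with the processed signal (14.8%), without array weights (5.22%), without the wash term (9.3%), with the slide as a block (13.9%), in batch 1 (3.84%), without the filter (4.47%) and without the 3 arrays of lowest weight (14.8%). Leaving out 1 array gave 1 to 1 in WT, 3 to 3 in Pparαhep-/- and 2 to 5 in Pparα-/- for HFD. Between genotypes on CTRL it gave 1 to 1 for either mutant against WT and 0 to 1 between the mutants, and on HFD 2 to 6 for Pparα-/- against WT, 2 to 4 for Pparαhep-/- against WT and 2 to 3 between the mutants. For the responses it gave 1 to 2 (WT and Pparαhep-/-), 0 to 2 (WT and Pparα-/-) and 0 to 1 (the mutants).

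Replicate numbers did not pair the samples: same-numbered arrays of different groups had deviations with a median r of 0.02 (-0.44 to 0.69), 37 of 120 such pairs were over 0.1, and 11 of 48 arrays correlated best with their own number. With the replicate block the count for HFD in Pparα-/- livers was 5, Fmo4 being added at -0.25, and no other count changed. Signal over background limits Fmo4, measured above background on 24 of 48 arrays.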
